A study of Mus musculus with 4 samples.

Results

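The Fos, Jun and Egr immediate early genes were followed in leukemia stem cells of a mouse model of chronic myeloid leukemia, with and without Hif1a. They were 10 transcription factor genes chosen by symbol (Fos, Fosb, Jun, Junb, Jund, Egr1, Egr2, Egr3, Nr4a1 and Atf3) and not by a threshold on their values. Earlier results of these data were known when they were chosen. All 10 were measured, each by 1 probe set, among 19938 genes. Immediate early genes are switched on within minutes of a growth factor, cytokine or stress signal, from transcription factors already present in the cell, and their short-lived messages fade when the signal ends. Fos proteins pair with Jun proteins through leucine zippers to form the AP-1 factor, Egr proteins bind GC-rich sites through zinc fingers, Nr4a1 is an orphan nuclear receptor and Atf3 is a stress-induced leucine zipper protein. In mouse blood stem cells, Egr1 is known for keeping cells quiescent and in the marrow, and loss of Junb, or of Nr4a1 together with Nr4a3, is known to lead to myeloid disease.

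Both groups came from donors of C57BL/6 (B6) background aged 8 weeks that had received 5-fluorouracil, either WT mice or Hif1a-/- mice. The donor marrow was infected with a retrovirus for BCR-ABL and GFP and given to B6 recipients, and 14 days later marrow cells that were GFP+Lin-c-Kit+Sca-1+ were sorted. Each genotype had 2 samples, and every sample was hybridised to its own Affymetrix whole-transcript array. Although titled biological replicates, they are not said to come from separate or from pooled animals, so the p-values reflect only how far these samples spread, which may be technical. They also do not say in which cells, or by which Cre, Hif1a was deleted.

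The deposited values were RMA log2 expression, in which 1 unit is a 2-fold change, and probe sets of different genes are not on a shared scale. Array medians over the genes tested lay between 8.53 and 8.57. Hif1a itself read 11.34 and 11.50 on the WT arrays and 11.25 and 11.39 on the Hif1a-/- arrays, with groups that overlapped (difference -0.09, 95% interval from -0.42 to 0.23). A probe set outside a deleted part would not show the deletion, but where the Hif1a probes lie was not examined. Ly6a, the gene of Sca-1, was not analysed here; Kit read 10.32 and 11.07 in WT and 10.95 and 10.61 in Hif1a-/- samples. Of 8 measured markers that the lineage gate should remove, 4 were highest on WT replicate 1 and 4 were not. The granulocyte gene Ly6g, named after its values were seen, had the widest range of the 8 and read 13.10 there, against 10.64, 11.74 and 11.64 on the other three arrays (WT replicate 2, then Hif1a-/- replicates 1 and 2).

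RefSeq promoter windows of the build GRCm38.p6, from 250 bases before to 50 after a gene's start, were used for 8 of the 10 genes, all but Egr1 and Egr3, and Egr2 had 5 such windows. They were searched on both strands for the CArG box bound by serum response factor, the cyclic AMP response element TGACGTCA, the AP-1 site TGANTCA, the Egr site GCGNGGGCG and the HIF core ACGTG. The windows printed are those of Egr2 and Nr4a1, the pair with the largest genotype differences, followed by a stretch of another Egr2 window and of the Fosb window with the matches found there. Capitals mark the matches.
Egr2 (chr10:67537619-67537918, plus strand): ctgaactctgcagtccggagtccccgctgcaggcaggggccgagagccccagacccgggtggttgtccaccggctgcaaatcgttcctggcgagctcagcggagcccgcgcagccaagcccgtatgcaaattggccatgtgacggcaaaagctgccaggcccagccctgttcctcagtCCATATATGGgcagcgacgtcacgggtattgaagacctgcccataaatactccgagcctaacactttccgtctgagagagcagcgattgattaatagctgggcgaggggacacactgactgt
Nr4a1 (chr15:101266596-101266895, plus strand): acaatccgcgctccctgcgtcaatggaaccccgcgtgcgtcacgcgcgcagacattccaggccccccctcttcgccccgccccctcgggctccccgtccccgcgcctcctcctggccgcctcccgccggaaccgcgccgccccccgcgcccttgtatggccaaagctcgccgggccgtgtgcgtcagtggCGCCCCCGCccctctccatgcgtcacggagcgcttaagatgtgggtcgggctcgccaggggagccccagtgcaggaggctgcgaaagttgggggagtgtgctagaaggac
Egr2, part of chr10:67537316-67537615 (plus strand): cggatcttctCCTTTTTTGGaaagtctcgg
Fosb, part of chr7:19309996-19310295 (minus strand): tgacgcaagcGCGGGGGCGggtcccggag

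A CArG box stood in 4 of the 5 Egr2 windows, 3 of which overlap and hold the same match, and in no window of the other 7 genes. It was found in 1.63% of all 32851 windows. The Egr site was found in the Fosb and Nr4a1 windows and in 5.55% of all windows, in Nr4a1 on the reverse strand. The HIF core, present in 19.6% of all windows, was found in the window of Jund and in 1 upstream window of Egr2, chr10:67535249-67535548, where both strands of a palindrome match. No searched window of these genes held TGACGTCA (1.79% of all windows) or TGANTCA (7.81%). These are matches of letters, not measured binding sites, and these arrays did not test binding.

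All 10 genes had a lower mean in leukemia stem cells without Hif1a than in WT cells, by small amounts. The 10 genes were chosen with earlier results of these data known, so this count is a description. A lower mean was found for 38.6% of all genes. It was 47.1% with each array centred on its median and 47.2% after a second quantile normalization. All 10 genes stayed lower under both, but centring lowered every difference by the same amount and could not turn them. The median difference of the 10 genes was -0.16 on the log2 scale, against 0.03 for all genes tested, and it ranged from -0.40 for Egr2 to -0.01 for Jun. In 4 genes, Egr2, Fos, Egr1 and Jund, the higher Hif1a-/- value was under the lower WT value, which held for 9.05% of all genes. After a second quantile normalization it held for 2 of the 10, Egr2 and Fos, and for 13% of all genes. The opposite separation held for 0 of the 10 and for 15.7% of all genes. By limma 0 of the 10 genes had an adjusted p under 0.05, as did 0% of all genes, and 1, Egr2, had an unadjusted p under 0.05, in the lower direction, which 0.978% of all genes had. In the higher direction it was 0 of the 10 and 0.697% of all genes, and in either direction 1.68% of all genes. Over all genes, 195 were lower and 139 higher at that unadjusted threshold, or 255 and 95 when each array was centred on its median. Bulk samples cannot tell fewer cells of a type from less RNA per cell.

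**Figure D1:**
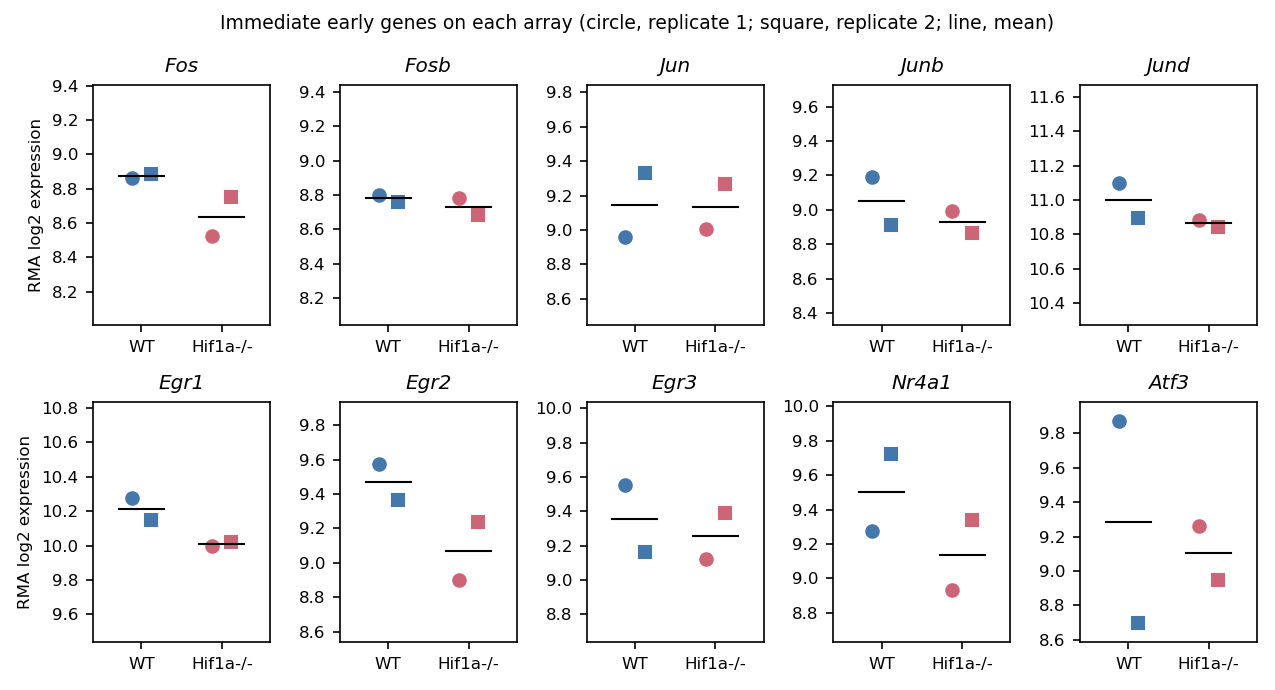
RMA log2 expression of each of the 10 genes (y axis, each panel spanning the same number of log2 units) on the 2 WT and 2 Hif1a-/- arrays; circles are replicate 1, squares replicate 2 and lines group means. Egr2, Fos, Egr1 and Jund are separated by genotype, and the WT arrays of Atf3 lie furthest apart, at 9.87 and 8.70.

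Among the Egr zinc finger genes, Egr2 had the largest difference of the 10 genes. Egr2, a regulator of myelin, lymphocyte and macrophage genes, read 9.57 and 9.37 on WT replicates 1 and 2 and 8.90 and 9.23 on Hif1a-/- replicates 1 and 2. Both WT values were the higher ones, and Hif1a-/- replicate 1 was the lowest by a margin. The mean was 9.47 ± 0.15 (SD, n = 2) for the WT samples and 9.07 ± 0.24 (SD, n = 2) without Hif1a, a WT level 1.32-fold that of Hif1a-/-. The difference was -0.40 ± 0.16 (SE) with a 95% interval from -0.79 to -0.01 (unadjusted limma p 0.0447, adjusted limma p 0.999), and 1.11% of all genes had a more negative one. Without Hif1a-/- replicate 1 it was -0.24 (unadjusted limma p 0.353), and without WT replicate 2 it was -0.51 with an adjusted limma p of 0.0433, a setting in which 7.23% of all genes passed. The unadjusted limma p rose to between 0.052 and 0.079 with a filter on low values, a second quantile normalization or a variance trend.

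Egr1, which growth factors induce in most cell types, read 10.27 and 10.15 in WT and 9.998 and 10.02 in Hif1a-/- samples. Its groups did not overlap, and both pairs of replicates were close together. The difference was -0.20 ± 0.12 (SE), with an interval from -0.50 to 0.10 (unadjusted limma p 0.152). Egr3, a close relative of Egr2 that acts in lymphocytes and muscle spindles, read 9.55 and 9.16 in WT and 9.12 and 9.39 in Hif1a-/- samples. These groups overlapped, since Hif1a-/- replicate 2 lay above WT replicate 2, and the difference of -0.10 became 0.10 without WT replicate 1 and 0.03 without Hif1a-/- replicate 1.

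Of the Fos genes, Fos had close WT values and lower Hif1a-/- values. Fos, the prototype AP-1 subunit, read 8.86 and 8.89 in WT and 8.52 and 8.75 in Hif1a-/- samples. The WT arrays differed by 0.025, and the 0.22 between the Hif1a-/- arrays was nearly as large as the genotype difference of -0.24 ± 0.13 (SE), whose interval ran from -0.56 to 0.09 (unadjusted limma p 0.124). Without Hif1a-/- replicate 1 the difference was -0.13. Fosb, a relative known for lasting forms in neurons, read 8.80 and 8.76 in WT and 8.78 and 8.68 in Hif1a-/- samples. Its 4 values lay within 0.12 of each other, the narrowest range of the 10 genes, and its difference of -0.05 had an interval from -0.34 to 0.25.

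The Jun genes had differences of -0.13 or smaller in size. Jund, the Jun gene that is expressed most steadily in resting cells, read 11.10 and 10.90 in WT and 10.88 and 10.84 in Hif1a-/- samples. The groups did not overlap, but WT replicate 2 lay just above both Hif1a-/- arrays, and the difference of -0.13 (interval from -0.45 to 0.18) was -0.033 without WT replicate 1. Junb, which often opposes Jun in growth control, read 9.19 and 8.91 in WT and 8.99 and 8.86 in Hif1a-/- samples, with groups that overlapped. WT replicate 1 was its highest array, and its difference of -0.12 (interval from -0.48 to 0.23) became 0.018 without it.

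Jun, the AP-1 subunit that can pair with itself, showed the smallest difference. It read 8.96 and 9.33 in WT and 9.005 and 9.27 in Hif1a-/- samples, so that the replicates of each genotype were further apart than the genotype means. The difference was -0.01 ± 0.17 (SE), with an interval from -0.43 to 0.41, which still allows a difference of either sign larger than that of Egr2. It was 0.18 without WT replicate 2 and 0.12 without Hif1a-/- replicate 1.

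Nr4a1 had the second largest difference, with widely spaced replicates. Nr4a1, also called Nur77, read 9.28 and 9.73 in WT and 8.93 and 9.34 in Hif1a-/- samples. The groups overlapped, since Hif1a-/- replicate 2 lay above WT replicate 1, and in both genotypes replicate 2 was the higher one. The difference was -0.37 ± 0.21 (SE), with an interval from -0.86 to 0.13 (unadjusted limma p 0.124), and 1.45% of all genes had a more negative one. It was -0.16 without Hif1a-/- replicate 1, -0.14 without WT replicate 2 and -0.59 without WT replicate 1.

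Atf3 varied most. It read 9.87 and 8.70 in WT and 9.26 and 8.95 in Hif1a-/- samples, so both the highest and the lowest array were WT and the Hif1a-/- values fell between them. The WT arrays differed by 1.17, and 98.9% of all genes differed less between them. The difference of -0.18 ± 0.36 (SE) had an interval from -1.04 to 0.68, the only one of the 10 intervals to include a 2-fold lower level. It turned to 0.41 without WT replicate 1 (adjusted limma p 0.221) and was -0.77 without WT replicate 2, where the adjusted limma p was 0.0030 and the lone WT array is assumed to vary like the others.

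**Figure D2:**
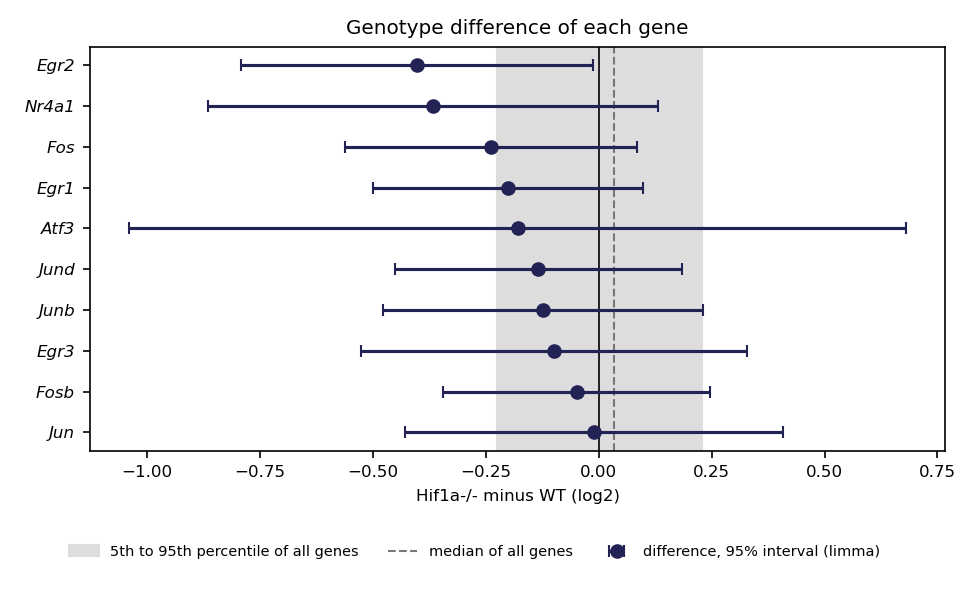
Hif1a-/- minus WT difference of each gene (x axis, log2) with its 95% interval from limma's moderated variance; the grey band holds the 5th to 95th percentile of all 19938 genes and the dashed line is their median of 0.03. All 10 points lie left of 0, and only the interval of Egr2 ends below 0, at -0.01.

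At the median, single replicates of a genotype lay further apart in the 10 genes than the genotype means, which average 2 arrays each. The median gap between the arrays of a genotype was 0.25 in WT and 0.24 in Hif1a-/- samples for the 10 genes, against 0.19 and 0.11 for all genes. The median size of the genotype difference was 0.16 for the 10 genes and 0.086 for all genes, so over all genes too it was below both gaps. In 7 of the 10 genes the larger replicate gap exceeded the genotype difference, and the exceptions were Egr2, Fos and Egr1. The share of all genes with such a gap was not counted. In the Hif1a-/- pair, 97.1% of all genes had a smaller gap than Nr4a1 and 94.5% a smaller one than Egr2, while 12.1% had a smaller one than Egr1. The genes therefore did not vary alike from array to array: Egr2, Fos, Jun, Egr3 and Nr4a1 were at least 0.22 higher on Hif1a-/- replicate 2 than on replicate 1, and Atf3, Junb, Fosb and Jund were lower there.

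**Figure D3:**
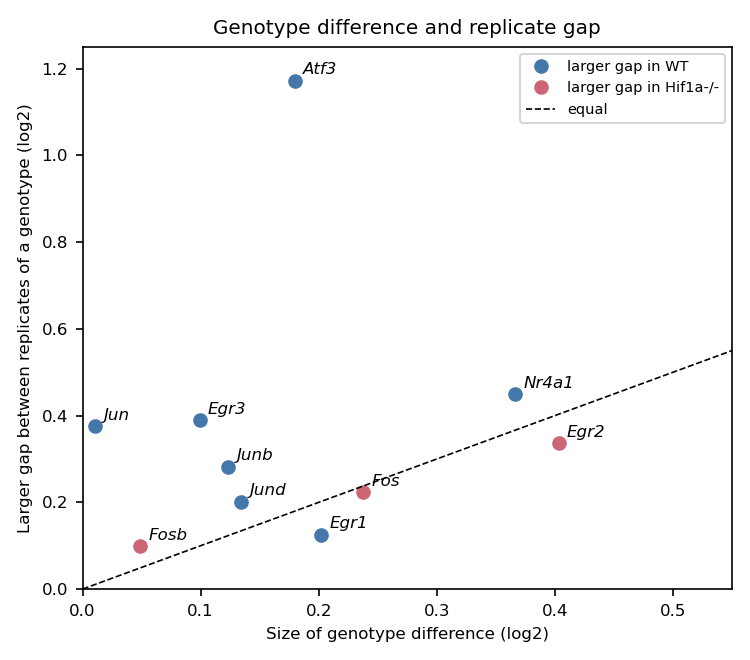
Size of the genotype difference (x axis, log2) against the larger of the gaps between the 2 replicates of a genotype (y axis, log2) for each gene, coloured by the genotype with the larger gap; the dashed line marks equal size. Egr2, Fos and Egr1 lie below the line and the other 7 genes above it.

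WT replicate 1 was the highest array for 7 of the 10 genes and WT replicate 2 for the other 3, Fos, Jun and Nr4a1. Of all genes, 26.6% were highest on WT replicate 1 and 27.4% on WT replicate 2. Hif1a-/- replicate 1 was the lowest for 5 genes (Fos, Egr1, Egr2, Egr3 and Nr4a1) and Hif1a-/- replicate 2 for 3 (Fosb, Junb and Jund), where 15.2% and 15.0% of all genes were lowest. Relative to each gene's mean, the median of the 10 genes was 0.17 and 0.02 on the WT arrays and -0.12 and -0.05 on the Hif1a-/- arrays. With 1 array left out at a time, 7 of the 10 genes were lower in Hif1a-/- samples without WT replicate 1 (44.2% of all genes), 9 without WT replicate 2 (43.8%), 8 without Hif1a-/- replicate 1 (40.2%) and 9 without Hif1a-/- replicate 2 (41%). Fos, Jund, Egr1, Egr2 and Nr4a1 were lower under all 4 omissions, as were 13.3% of all genes.

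**Figure D4:**
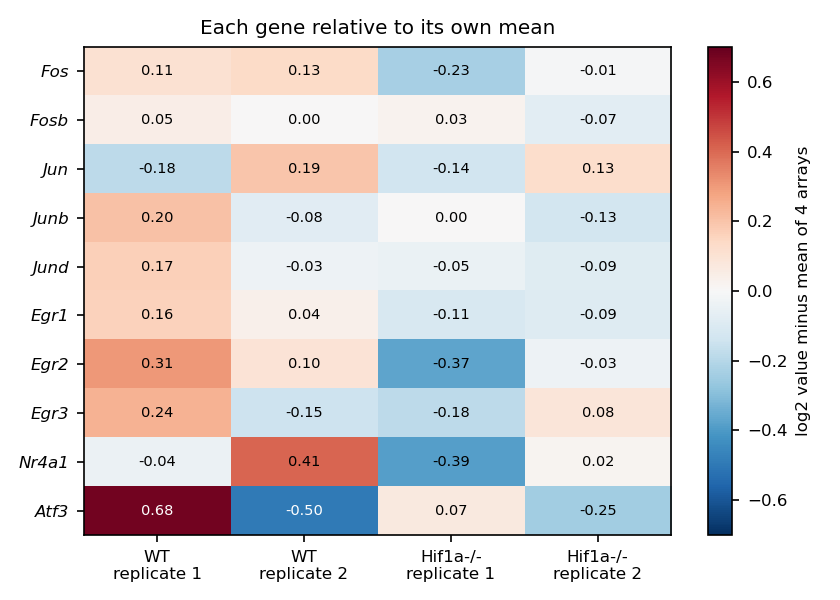
Value of each gene on each array minus its mean over the 4 arrays (log2, numbers in cells; red higher, blue lower). The WT replicate 1 column is highest for 7 genes, and Atf3 spans the widest range, from 0.68 to -0.50.

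Markers of other cells moved between the same arrays. On WT replicate 1, 7 of 8 monocyte and macrophage markers had their highest value, as did 26.6% of all genes. The summed level of the 8, on the linear scale, ranged from 6575 to 17072 in WT and from 9321 to 10176 in Hif1a-/- samples. Such a sum weighs the brightest probe sets most. Probe sets of different genes are not on a shared scale, so a sum is not an amount of a cell type. The 8 lineage gate markers had summed levels from 3923 to 14443 in WT and 6203 to 6943 in Hif1a-/- samples, and 4 of the 8 were highest on WT replicate 1. Summed levels of 9 granulocyte markers ranged from 65686 to 88176 in WT and 75392 to 81307 in Hif1a-/- samples; 5 of the 9 were highest and 4 lowest on WT replicate 1. Those of 8 stem and progenitor markers ranged from 13754, on WT replicate 1, to 18166 in WT and from 14192 to 15376 in Hif1a-/- samples. On WT replicate 1, 5 of these 8 were lowest and 2 highest. The 9 mast cell and basophil markers all had a lower mean in Hif1a-/- samples (summed 43777 to 50482 in WT, 38936 to 43578 in Hif1a-/-), as did 38.6% of all genes. The 6 measured erythroid markers all had a higher one (6554 to 6847 in WT, 8037 to 11024 in Hif1a-/-), as did 12240 of the 19938 genes. No marker was at 0, since RMA values have no 0, and the part of these markers in the differences of the 10 genes was not tested. WT replicate 1 was the array with the highest summed monocyte and lineage marker levels. Without it, the median difference of the 10 genes was -0.09 and that of Egr2 was -0.30. The differences of Nr4a1 (-0.59), Fos (-0.25) and Jun (-0.20) were then larger in size than with all 4 arrays. Those of the other genes moved towards or above 0.

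**Figure D5:**
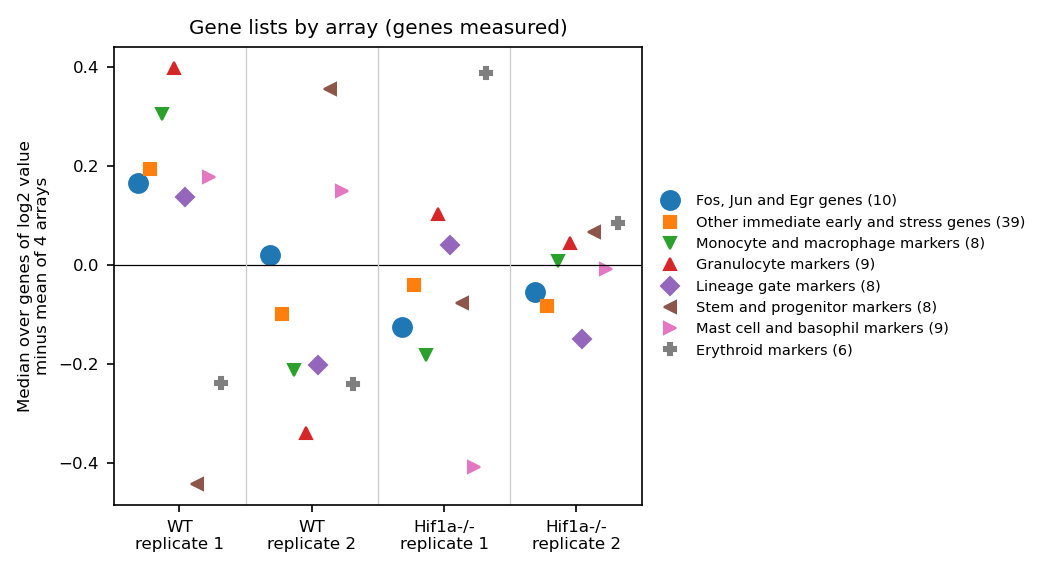
Median over the genes of a list of the log2 value minus each gene's mean over 4 arrays (y axis), for each array (x axis), with the number of genes measured in the legend. The Fos, Jun and Egr genes run from 0.17 on WT replicate 1 to -0.12 on Hif1a-/- replicate 1. The medians of monocyte and granulocyte markers are highest on WT replicate 1, at 0.30 and 0.40, although 4 of the 9 granulocyte markers are lowest there. That of stem and progenitor markers is lowest there, at -0.44, where 5 of the 8 are lowest and 2 highest.

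Partners and relatives of the 10 genes went both ways. Of 13 other AP-1 and leucine zipper genes, 7 were lower (38.6% of all genes) and 6 higher by mean in Hif1a-/- samples, with a median difference of -0.02. Of these 13, 0 had an unadjusted limma p under 0.05, where 1.68% of all genes had one. Fosl1, a Fos relative, read 8.98 and 9.09 in WT and 9.21 and 9.19 in Hif1a-/- samples, the only gene of this list whose Hif1a-/- values were both above the higher WT value (difference 0.17). Fosl2 differed by -0.24 (0.036 without WT replicate 1) and Batf, a partner of Jun proteins in lymphocytes, by -0.16 (-0.044 without Hif1a-/- replicate 1). Of Egr4, Nr4a2, Nr4a3 and the Egr corepressors Nab1 and Nab2, 3 of 5 had a lower mean (38.6% of all genes), all with groups that overlapped. Nr4a3 differed by -0.17 (-0.013 without Hif1a-/- replicate 1), Egr4 by 0.10 (-0.087 without WT replicate 2) and Nr4a2 by 0.09 (-0.12 without WT replicate 1).

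Of 16 measured genes for RAS, RAF and MAP kinases, their effector kinases, serum response factor and its partners, 12 had a lower mean (38.6% of all genes). In 3 the Hif1a-/- values were both under the lower WT value (9.05% of all genes), and 7 further entries were not analysed here. The list's median difference was -0.05, and by limma 0 passed adjustment and 1 had an unadjusted p under 0.05, where 1.68% of all genes had one. That gene was Map2k1, which encodes the ERK activator MEK1. It read 10.91 and 10.60 in WT and 10.44 and 10.31 in Hif1a-/- samples. Its difference was -0.38 ± 0.15 (SE, unadjusted limma p 0.0422, adjusted limma p 0.999), or -0.23 without WT replicate 1. The unadjusted limma p of Map2k1 rose to between 0.051 and 0.071 with a filter on low values, a second quantile normalization or a variance trend. Map2k4, which encodes the JNK activator MKK4, differed by -0.29 (unadjusted limma p 0.135) and Rps6ka5, a kinase of histones at immediate early genes, by -0.26. The groups of Map2k4 overlapped after a second quantile normalization, and its difference was -0.094 without WT replicate 1 and that of Rps6ka5 -0.11 without Hif1a-/- replicate 2.

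Most other immediate early and stress genes also had a lower mean in Hif1a-/- samples. Of 39 measured, 32 were lower and 7 higher, with a median difference of -0.13, where 38.6% of all genes were lower. The groups were separated in 10 of the lower and 1 of the higher genes, where the shares of all genes were 9.05% and 15.7%. This list too was chosen with earlier results of these data known. By limma 0 passed adjustment and 1 had an unadjusted p under 0.05, where 1.68% of all genes had one. It was Dusp5, a nuclear phosphatase of ERK, which read 10.52 and 10.38 in WT and 9.97 and 10.09 in Hif1a-/- samples (difference -0.42 ± 0.13 SE, unadjusted limma p 0.0163, adjusted limma p 0.999). Tnfaip3, an inhibitor of NF-kappaB signalling, differed by -0.31 with groups that did not overlap. Zfp36, which destabilises short-lived messages, differed by -0.40, with a value of 10.48 on WT replicate 1 and values from 9.68 to 9.75 on the other three arrays, and by -0.030 without that array. WT replicate 1 was the highest array for 28 of the 39 genes (26.6% of all genes). Without it 18 of the 39 (44.2% of all genes) had a lower mean in Hif1a-/- samples, and the median difference of the 39 was 0.02.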

How the data were processed

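Leukemia stem cells were measured on 4 arrays, 2 WT and 2 Hif1a-/-, grouped by the genotype in their titles. The authors deposited 1 table of log2 values for 35556 probe sets, made with Affymetrix Expression Console 1.1 and RMA per the submitters' processing notes; RMA corrects background, equalises array distributions and summarises probes, so small differences of dim genes are understated and changes of total RNA are lost. All 4 value columns were used. The platform annotation gave 1 symbol to 21789 probe sets, several to 1621 and none here to 12146; the highest-mean set stood for each of 19938 genes. RefSeq names (GRCm38.p6) were looked up by Entrez number and changed 0 symbols. The test was limma 3.58.1 (lmFit, eBayes; R 4.3.3), genotype as the only term, Benjamini-Hochberg over all genes, threshold 0.05, with 2 residual and 4.46 prior degrees of freedom; the fit was tested on simulated data. The number of arrays limits the precision; the median SE of a difference was 0.14. With 2 arrays a group an exact permutation test cannot reach 0.05, so none was run. The 10 genes and all lists were chosen with earlier results of these data known. The naming rule took the 10 genes, Hif1a, the 3 genes with the smallest unadjusted p of each of the 5 other gene lists and the 3 genes closest in profile. For the closest in profile, the rule left out predicted or unnamed transcripts, olfactory or vomeronasal receptors and small RNAs. Marker lists, outside that rule, are given by sums and counts; Kit, Ly6a and, after its values were seen, Ly6g are named from them. Alternatives were 2 filters, 2 normalizations, another variance model, 2 probe set rules, a replicate block and each array left out.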

Additional observations from a re-analysis of the deposited data

How the results depend on the processing

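The number of genes called over all 19938 was 0, and it was 2 with a variance trend and robust fitting, 47 with the replicate block and between 2 and 1442 with 1 array left out; 0 of the 10 genes were among those 47. Same-numbered replicates did not deviate together over all genes (correlation -0.0072), which cannot exclude a pairing that touches only some genes. The labels do not say that the numbers pair samples. Of the 10 genes, 1 had an unadjusted limma p under 0.05, also with the replicate block, where 1.2% of all genes were lower at that threshold. That count was 0 with the filter at the median level, with the filter at the 25th percentile, with a second quantile normalization and with the variance trend, where Egr2 had unadjusted limma p of 0.065, 0.052, 0.079 and 0.053, and it ranged from 0 to 2 with 1 array left out, beside 13%, 18.2%, 0.471% and 1.11% of all genes when WT replicate 1, WT replicate 2, Hif1a-/- replicate 1 or Hif1a-/- replicate 2 was left out. Without WT replicate 1 the count was Nr4a1, lower, and Atf3, higher (0.41). Without WT replicate 2, adjusted limma p fell under the threshold for Atf3 (0.0030) and Egr2 (0.0433), as for 7.23% of all genes; the lone WT array is there assumed to vary like the others. The count of genes with both Hif1a-/- arrays below both WT arrays was 2 instead of 4 after a second quantile normalization, beside 13% of all genes. With 1 array left out it ranged from 6 to 8, where the share of all genes was higher too, at 32.3% without WT replicate 1, 30.7% without WT replicate 2, 19.5% without Hif1a-/- replicate 1 and 19.7% without Hif1a-/- replicate 2. The median difference of the 10 genes, -0.16, ranged from -0.25 to -0.086 with 1 array left out. With 1 array left out, differences turned 7 times and ranged from -0.099 to 0.00075 for Fosb, from -0.20 to 0.18 for Jun, from -0.26 to 0.018 for Junb, from -0.29 to 0.096 for Egr3 and from -0.77 to 0.41 for Atf3. No direction of the 10 genes turned after a second quantile normalization. Centring each array on its median lowered every difference by the same 0.026, so it could not turn a lower mean. The filters, variance model, probe set rules and replicate block could not turn a direction. They leave the differences of these genes, with 1 probe set each, unchanged.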

Other observations

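Heat shock genes are another group that stress induces. Of these, 3 of 9 measured were lower (38.6% of all genes) and 6 higher by mean in Hif1a-/- samples, with a median difference of 0.08. On WT replicate 1, 7 of the 9 were lowest, as were 32.1% of all genes. Hspb1 differed by -0.25 (0.054 without WT replicate 2), Hspd1, the mitochondrial chaperonin, by 0.23 (-0.04 without WT replicate 1) and Dnaja1, a cochaperone, by -0.15 (0.0011 without Hif1a-/- replicate 1), all with groups that overlapped.

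Of the genes outside all lists, Bace2, Chfr and Gpr4 came closest to the average profile of the 10 genes. Predicted or unnamed transcripts, olfactory or vomeronasal receptors and small RNAs had been left out. Values were taken relative to each gene's own mean on the 4 arrays, and the root mean square differences were 0.0092, 0.012 and 0.012. The likeness rests on 4 arrays and is a description.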
